A study of Mus musculus with 16 samples.

Results

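The genes described here encode enzymes and receptors of prostanoid and leukotriene signalling: Ptgs1, Ptgs2, Ptgis, Ptges, Ptgds, Ptgir, Ptger3, Ptger4, Tbxa2r and Alox5ap. They were taken by gene symbol and are 10 of the 54532 genes in the deposited table, each with a single entry. RNA was sequenced from whole aortas with the adventitia removed, from male C57BL/6j mice aged 8 to 12 weeks that lacked apolipoprotein E (Apoe-/-). An implanted osmotic pump delivered saline (Saline) to one set of 8 and angiotensin II (Ang II, a peptide hormone that constricts arteries) at 1000 ng per kg per min to the other set of 8, for 7 days in both. All 16 samples share the Apoe deletion and the day, so every comparison is between Ang II and saline on the Apoe-/- background. The labels name 16 samples and do not give the mouse behind each, so the tests below weigh differences only against the scatter among libraries, which may be technical.

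Prostanoids are lipid signals made from arachidonic acid, which phospholipases A2 release from membranes. The cyclooxygenases Ptgs1 (COX-1, present in most cells at rest) and Ptgs2 (COX-2, an inducible enzyme) turn it into prostaglandin H2, from which separate synthases make prostacyclin, prostaglandins E, D and F, and thromboxane. In the artery wall prostacyclin relaxes smooth muscle through the receptor Ptgir, while thromboxane contracts it through Tbxa2r, and prostaglandin E2 acts through several receptors with opposing effects. Leukotrienes are made from the same fatty acid by 5-lipoxygenase, which needs the membrane protein Alox5ap and is a feature of white blood cells.

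The RefSeq (GRCm38.p6) sequence of 250 bases before each annotated start is given for both cyclooxygenase genes, Ptgs2 and Ptgs1. Capitals mark matches to the C/EBP palindrome TTGCGCAA, 1 of 3 motifs searched on both strands. The other motifs were the E-box CACGTG and the cyclic AMP response element core CGTCA.
Ptgs2, chr1:150099781-150100030, plus strand: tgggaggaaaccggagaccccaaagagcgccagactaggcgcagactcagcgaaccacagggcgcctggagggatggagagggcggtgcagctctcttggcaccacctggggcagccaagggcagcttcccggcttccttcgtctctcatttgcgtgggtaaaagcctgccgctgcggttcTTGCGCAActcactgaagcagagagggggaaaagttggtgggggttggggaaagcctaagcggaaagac
Ptgs1, chr2:36230176-36230425, plus strand: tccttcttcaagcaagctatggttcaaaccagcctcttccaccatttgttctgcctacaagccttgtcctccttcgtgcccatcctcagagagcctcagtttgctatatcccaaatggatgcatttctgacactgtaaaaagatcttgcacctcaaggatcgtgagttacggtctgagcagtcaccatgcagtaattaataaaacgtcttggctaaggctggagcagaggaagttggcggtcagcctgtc
In the 300-base window of the RefSeq table, which runs 50 bases past the start, Ptgs2 held each of the 3 motifs at 1 place and Ptgs1 held none. The C/EBP palindrome lay 69 to 62 bases before the Ptgs2 start. The core element (bases 14 to 18 after the start) and the E-box (bases 17 to 22) overlapped. Of 32817 such windows, 0.183% held the C/EBP palindrome, 7.15% the E-box and 20.8% the core element. These matches are descriptions of letters and not of binding, and their part in the change of either gene was not tested. A RefSeq window was found for 8 of the 10 genes, and matches are given for Ptgs2 and Ptgs1 only.

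The libraries held 14606864 to 19988726 reads, recovered from the FPKM (fragments per kilobase of transcript, scaled to library size). In the shallowest library a single read per kilobase corresponds to 0.0685 FPKM. Of the 10 genes, 8 had a mean of at least 0.5 FPKM and were tested with limma among 15007 genes, while Ptges and Ptgds were below it. Saline 8, Saline 7 and then Saline 2 stood farthest from the rest on the leading principal component, which held 46.9% of the variance. The smooth muscle genes Acta2, at 3833 to 9220 FPKM, and Myh11, at 634 to 2073 FPKM, were high in every library. Apoe RNA was read at 6.81 to 110 FPKM in the 16 libraries, and these gene-level values do not show which exons it came from; the library names begin with WT, although the protocols give Apoe-/-.

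Of the 8 genes tested, 1 was higher and 2 were lower with Ang II at a limma adjusted p under 0.05 (Benjamini-Hochberg over 15007 genes). Over all tested genes 9.54% were called higher and 24.9% lower, so the 12.5% and 25.0% found among these 8 are near the background; for both directions together it is 34.5%. The split over all genes depends on scaling: it was 1431 higher and 3741 lower here, 2270 and 2374 after quantile normalization, and 2236 and 2114 after median ratio scaling. None of the 10 genes had every Ang II library above every saline library (2.74% of all tested genes did) or every one below (5.62%). The median log2 fold change of the 8 tested genes was -0.20, against -0.12 over all genes tested. Fold changes are Ang II minus saline in log2(FPKM + 1), and the added 1 shrinks them for weakly expressed genes. Ptgs2 was the gene that rose, and Ptgs1 and Tbxa2r were those that fell.

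**Figure D1:**
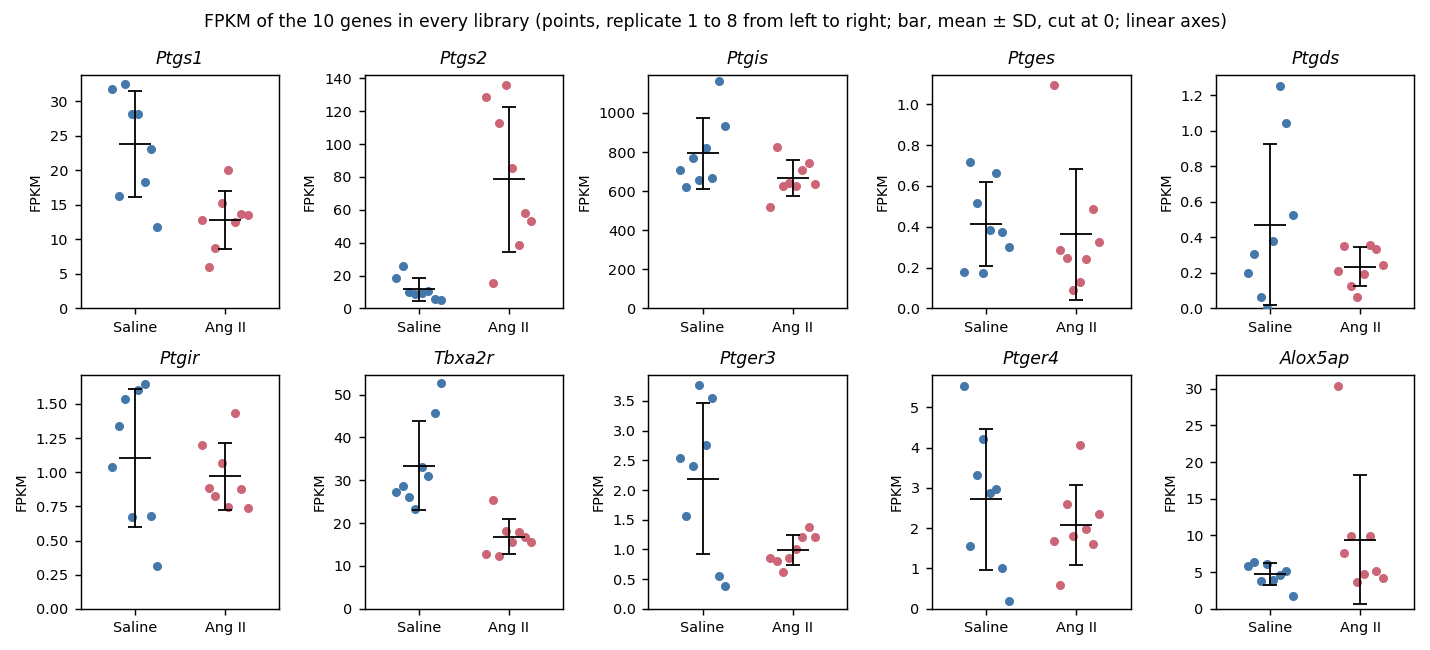
FPKM (linear axes, 1 panel per gene) of the 10 genes in the 8 saline and 8 Ang II libraries, with points for libraries and black bars for mean ± SD. Ptgs2 was higher in 7 of 8 Ang II libraries than in any saline library, and Tbxa2r lower in 7 of 8.

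Ptgs2 (ENSMUSG00000032487, chromosome 1, 150100031 to 150108227, plus strand, GRCm38) rose from a mean ± SD of 11.7 ± 6.99 FPKM over 8 saline libraries to 78.5 ± 44.1 FPKM over 8 Ang II libraries. The saline libraries ran from 5.11 FPKM (Saline 8) over a median of 9.64 to 25.7 FPKM (Saline 2). The Ang II libraries ran from 15.4 FPKM (Ang II 2) over a median of 71.7 to 136 FPKM (Ang II 4). All Ang II libraries except Ang II 2 lay above every saline library, and Ang II 2 lay below Saline 1 (18.7 FPKM) and Saline 2. The log2 fold change was 2.54 (SE 0.40, 95% interval 1.70 to 3.38, limma adjusted p = 0.000162), and the ratio of the mean FPKM was 6.69. In a ranking of all genes by mean FPKM, Ptgs2 stood at position 7161 with saline and at 1224 with Ang II. It was read 183 to 5474 times per library, and no exon base overlapped another gene model. In bulk RNA a change in the number of cells of a type and a change in RNA per cell cannot be told apart, here and for the other genes.

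White blood cells are a known source of inducible cyclooxygenase, and 4 of 10 macrophage and monocyte markers rose with Ang II and none fell, where 9.54% of all tested genes were called higher. The markers' summed level was 20.4 to 640 FPKM in saline libraries and 61.6 to 695 FPKM in Ang II libraries. The saline libraries with the highest sums, Saline 1 (640 FPKM) and Saline 2 (270 FPKM), were also the saline libraries with the most Ptgs2. Saline 7 (25.0 FPKM) and Saline 8 (20.4 FPKM) had the lowest sums and the least Ptgs2. Among the Ang II libraries, Ang II 2, with the least Ptgs2, had a sum of 354 FPKM, and Ang II 4, with the most, had one of 167 FPKM. After adjustment for the macrophage and monocyte score, the log2 fold change of Ptgs2 was 2.03 (limma adjusted p = 0.00781).

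Ptgs1 (ENSMUSG00000047250, chromosome 2, 36230426 to 36252272, plus strand) fell from 23.8 ± 7.67 to 12.8 ± 4.20 FPKM. With saline it ran from 11.8 FPKM (Saline 8) over a median of 25.6 to 32.6 FPKM (Saline 3), and with Ang II from 5.97 FPKM (Ang II 2) over a median of 13.1 to 20.1 FPKM (Ang II 5). The groups overlapped, but all 8 Ang II libraries lay below the saline median, with a log2 fold change of -0.84 (SE 0.23, limma adjusted p = 0.00938).

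Ptgs1 is the cyclooxygenase found in resting endothelium. Of 7 endothelial markers 2 fell with Ang II and none rose, which is near the 24.9% of all tested genes called lower. Their summed level was 524 to 1436 FPKM in saline libraries and 160 to 1221 FPKM in Ang II libraries. Ang II 2 had the lowest endothelial sum as well as the lowest Ptgs1, and Ang II 5 the highest of both among the Ang II libraries. Fitting the endothelial score as a covariate gave -0.79 for Ptgs1 (limma adjusted p = 6.52e-05). After adjustment for the macrophage and monocyte score it was -0.77, with a larger SE of 0.29, and the call was lost (limma adjusted p = 0.0757). Gm43621 on the other strand overlaps 3.81% of the Ptgs1 exon bases, and whether the counting used strand is not given in the sources used here.

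Because FPKM is per transcript length, the cyclooxygenases can be set against each other within a library. The length is the mean over annotated transcripts (1508 bases for Ptgs1 and 2405 for Ptgs2), which need not be that of the RNA present. The shares, and which gene exceeds the other, depend on these lengths. The difference in log2 ratio between the groups depends on them only through the added 1. Ptgs2 made up 20.0% to 61.2% of the summed FPKM of Ptgs1 and Ptgs2 with saline (median 27.6%) and 72.0% to 92.8% with Ang II (median 80.9%). Saline 2 was the single saline library in which Ptgs2 exceeded Ptgs1, and every Ang II library did so. The groups did not overlap in this share, while for Ptgs1 and for Ptgs2 alone they did. The share sets a gene called higher against one called lower, so it is no evidence apart from those calls. How many such pairs of genes separate the groups was not computed. The log2 ratio of Ptgs2 to Ptgs1, with 1 added to each FPKM, was -1.06 ± 0.79 with saline and 2.32 ± 0.85 with Ang II. The difference was 3.38 (exact two-sided permutation test p = 0.000155, the smallest that 12870 assignments can give; 0.000311 with Benjamini-Hochberg adjustment over the 2 ratios computed).

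**Figure D2:**
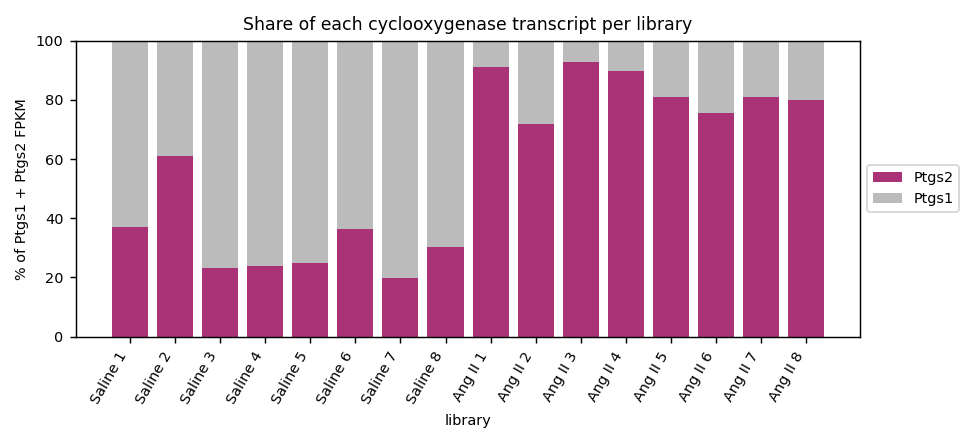
Share of the summed FPKM of Ptgs1 and Ptgs2 (percent, stacked bars from 0 to 100) in each of the 16 libraries. Ptgs2 takes 72.0% to 92.8% in the Ang II libraries and at most 61.2% in the saline libraries.

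Ptgis, the prostacyclin synthase (ENSMUSG00000017969, chromosome 2, 167191805 to 167240604, minus strand), was by far the most abundant of the 10 transcripts. It held 793 ± 181 FPKM in saline libraries and 666 ± 92.4 FPKM in Ang II libraries, which is position 99 and position 91 of all genes by mean FPKM. The saline libraries ran from 623 FPKM (Saline 2) over a median of 739.9 to 1165 FPKM (Saline 7), and the Ang II libraries from 521 FPKM (Ang II 1) over a median of 639.9 to 827 FPKM (Ang II 2). The groups overlapped almost wholly apart from Saline 7 and Saline 8 (935 FPKM), which lay above all other libraries. The log2 fold change of -0.23 was not called (95% interval -0.52 to 0.05, limma adjusted p = 0.184), and after quantile normalization it was 0.049. At 12111 to 27561 reads per library, counting error is small beside the spread between libraries.

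The other synthases among the 10 genes were near the limit of detection. Ptges, the inducible prostaglandin E synthase that is often coupled to Ptgs2 (ENSMUSG00000050737, chromosome 2, 30889471 to 30929863, minus strand), held 0.413 ± 0.205 FPKM in saline libraries and 0.362 ± 0.319 FPKM in Ang II libraries, from 2 to 23 reads per library. Ang II 1 had the highest level, 1.09 FPKM, and the other Ang II libraries held at most 0.488 FPKM. The difference in mean log2(FPKM + 1) was -0.07 (exact two-sided permutation test p = 0.608, unadjusted). Ptgds, the lipocalin-type prostaglandin D synthase (ENSMUSG00000015090, chromosome 2, 25466709 to 25470046, minus strand), held 0.471 ± 0.454 FPKM in saline libraries and 0.236 ± 0.109 FPKM in Ang II libraries, from 0 to 19 reads. Saline 6 (1.25 FPKM) and Saline 7 (1.04 FPKM) had the highest values, and Saline 4 was listed at 0. The difference was -0.20 (exact two-sided permutation test p = 0.239, unadjusted). No change of either gene was detectable at this depth.

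Tbxa2r, the thromboxane receptor (ENSMUSG00000034881, chromosome 10, 81328731 to 81335172, plus strand), was the most abundant receptor of the set and fell from 33.4 ± 10.3 to 16.8 ± 4.06 FPKM. With saline it ran from 23.2 FPKM (Saline 4) over a median of 29.7 to 52.6 FPKM (Saline 8), and with Ang II from 12.3 FPKM (Ang II 3) over a median of 16.2 to 25.3 FPKM (Ang II 2). All Ang II libraries except Ang II 2 lay below every saline library. Its log2 fold change was -0.93 (SE 0.17, limma adjusted p = 0.000569), and -0.74 without Saline 7 and Saline 8 (limma adjusted p = 0.000744). Of 6 smooth muscle markers 3 fell with Ang II and none rose, where 24.9% of all tested genes were called lower, with summed levels of 8717 to 14984 FPKM in saline libraries and 6184 to 10573 FPKM in Ang II libraries. The part of the smooth muscle markers in the fall of Tbxa2r was not tested.

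Ptgir, the prostacyclin receptor (ENSMUSG00000043017, chromosome 7, 16906490 to 16910905, plus strand), was low beside the level of its ligand's synthase, at 1.10 ± 0.504 FPKM in saline libraries and 0.971 ± 0.244 FPKM in Ang II libraries. Its libraries ran from 0.312 to 1.65 FPKM with saline (median 1.19) and from 0.739 to 1.43 FPKM with Ang II (median 0.881), so the Ang II range lay inside the saline range. The log2 fold change was -0.06 (95% interval -0.38 to 0.25, limma adjusted p = 0.770), and 0.015 after median ratio scaling. The log2 ratio of Ptgir to Tbxa2r in a library, again with 1 added to each FPKM, which at the low level of Ptgir pulls it toward 0, was -4.02 ± 0.68 with saline and -3.15 ± 0.35 with Ang II, a difference of 0.87 (exact two-sided permutation test p = 0.00155, also after adjustment over 2 ratios). Without Saline 7 and Saline 8 the difference was 0.52 (adjusted p = 0.00699, exact permutation test). The difference in ratio follows from the log2 fold changes of Tbxa2r (-0.93) and Ptgir (-0.06). It is therefore no result apart from the Tbxa2r call.

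Ptger3, a prostaglandin E2 receptor that lowers cyclic AMP and favours contraction (ENSMUSG00000040016, chromosome 3, 157566892 to 157645888, plus strand), held 2.19 ± 1.27 FPKM in saline libraries and 0.993 ± 0.255 FPKM in Ang II libraries. The saline libraries split: Saline 7 (0.550 FPKM) and Saline 8 (0.388 FPKM) lay below every Ang II library (0.621 to 1.38 FPKM, median 0.938), and the other 6 lay above every Ang II library at 1.56 to 3.77 FPKM. Over all 16 libraries the log2 fold change of -0.57 (SE 0.23) missed the threshold (limma adjusted p = 0.0687). It passed without Saline 7 (-0.70, limma adjusted p = 0.0214), without Saline 8 (-0.72, limma adjusted p = 0.0103) and without both (-0.90, limma adjusted p = 0.000216). Leaving out these lowest saline values moves the fold change down by construction, so these fits are no test of a fall. The values rest on 17 to 191 reads per library.

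Ptger4, a prostaglandin E2 receptor that raises cyclic AMP and favours relaxation (ENSMUSG00000039942, chromosome 15, 5206661 to 5244187, minus strand), held 2.71 ± 1.74 FPKM in saline libraries and 2.09 ± 0.995 FPKM in Ang II libraries. It ran from 0.195 FPKM (Saline 8) over a median of 2.93 to 5.54 FPKM (Saline 1), and with Ang II from 0.588 FPKM (Ang II 2) over a median of 1.90 to 4.06 FPKM (Ang II 5). The log2 fold change of -0.16 was not called (95% interval -0.80 to 0.47, limma adjusted p = 0.702). Without Saline 2, Saline 7 and Saline 8, which held the 3 lowest saline values, it was -0.67 (limma adjusted p = 0.0291). Leaving out the lowest saline values moves the fold change down by construction, so this value is no test of a fall. Ttc33 and Gm15937 on the other strand overlap 16.5% of the Ptger4 exon bases, so its level is uncertain.

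Saline 7 and Saline 8 stood apart from the other 6 saline libraries for 5 of the 10 genes. The share of all tested genes for which they did so was not computed. Both libraries also stood far out on the leading principal component of all tested genes. Without that share, this count cannot be read as a trait of the set. Ptgs2, Ptger3 and Ptger4 were lower in both than in any of the 6, while Ptgis and Tbxa2r were higher in both. Ptgs2 held 5.77 and 5.11 FPKM there against 8.83 to 25.7 FPKM in the 6, and Tbxa2r 45.7 and 52.6 FPKM against 23.2 to 33.1 FPKM. Saline 8 had the highest white adipocyte marker sum of the 16 libraries (296 FPKM). That of Saline 7 (120 FPKM) lay below those of Saline 2 (214 FPKM) and Saline 6 (229 FPKM). Saline 7 had the highest smooth muscle marker sum (14984 FPKM), and Saline 8 had 11203 FPKM, so neither trait was shared. Both held the fewest values above 0 of the 16 libraries (19895 in Saline 7 and 18592 in Saline 8). The part of the smooth muscle markers or of these numbers of values in the levels of the genes was not tested. With the white adipocyte score in the model the log2 fold change was -0.74 for Ptger3, which was then called (limma adjusted p = 0.0351), -0.47 for Ptger4 (limma adjusted p = 0.263) and -1.11 for Ptgs1 (limma adjusted p = 0.000814). Without Saline 7 and Saline 8 the log2 fold change was 2.27 for Ptgs2 (limma adjusted p = 0.000746) and -0.98 for Ptgs1 (limma adjusted p = 0.00309).

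**Figure D3:**
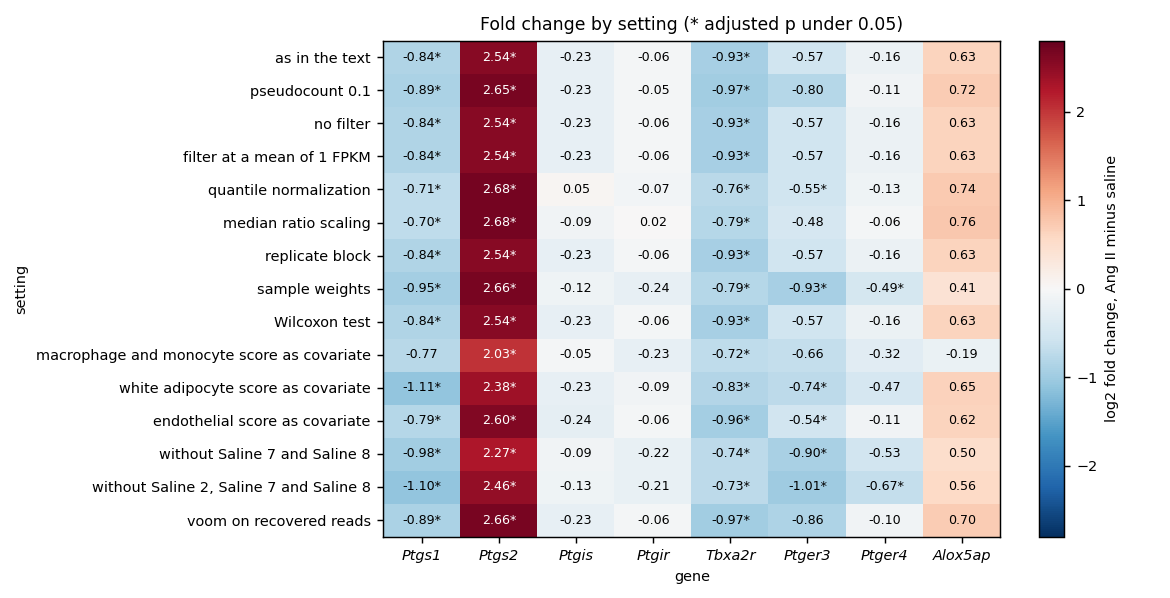
Log2 fold change (colour and number, Ang II minus saline) of the 8 tested genes under each setting, with an asterisk for an adjusted p under 0.05. Ptgs2 and Tbxa2r carry it in every row, Ptgs1 in every row but that with the macrophage and monocyte score, and Ptger3 in 6 of 15.

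Alox5ap, the protein that presents arachidonic acid to 5-lipoxygenase (ENSMUSG00000060063, chromosome 5, 149264767 to 149288153, plus strand), held 4.70 ± 1.52 FPKM in saline libraries and 9.44 ± 8.82 FPKM in Ang II libraries. The saline libraries ran from 1.78 FPKM (Saline 8) over a median of 4.88 to 6.42 FPKM (Saline 2), and the Ang II libraries from 3.63 FPKM (Ang II 4) over a median of 6.39 to 30.4 FPKM (Ang II 1). Ang II 1 lay far above the rest, Ang II 2, Ang II 3 and Ang II 6 lay at 7.62 to 9.92 FPKM, and the other 4 lay within the saline range. The log2 fold change of 0.63 was not called (SE 0.32, limma adjusted p = 0.139), and without Ang II 1 it was 0.36 (limma adjusted p = 0.248).

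The library with the most Alox5ap, Ang II 1, had the highest sums of some white blood cell marker lists but not of others. Its mast cell sum (15.1 FPKM) and lymphocyte sum (2.37 FPKM) lay below those of Saline 6 (20.2 and 31.3 FPKM). Ang II 1 had the highest summed levels of macrophage and monocyte markers (695 FPKM), of pan-leukocyte markers (193 FPKM) and of neutrophil markers (129 FPKM, against 0 to 10.6 FPKM with saline). Saline 1, with the next highest macrophage and monocyte sum (640 FPKM), held 5.80 FPKM of Alox5ap, inside the range of the other saline libraries. The part of the neutrophil markers was not tested. After adjustment for the macrophage and monocyte score, the log2 fold change of Alox5ap turned to -0.19 (limma adjusted p = 0.608). Its partner Alox5, the 5-lipoxygenase, was under the filter at 0.190 ± 0.128 FPKM in saline libraries and 0.610 ± 0.629 FPKM in Ang II libraries, with its highest value in Ang II 1 (2.12 FPKM). Gm19719 on the other strand overlaps 13.3% of the Alox5ap exon bases, so its level is uncertain.

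Beyond the 10 genes, a list of 43 other symbols of eicosanoid metabolism had 44 entries, of which 24 passed the filter on low values. With Ang II 3 of these were higher and 5 lower (12.5% and 20.8%, against 9.54% and 24.9% of all tested genes), with a median log2 fold change of -0.13. Among the lower calls, Pla2g4e and Mgst2 passed the filter only through the saline libraries, where they were high. With a filter at a mean of 1 FPKM, 3 lower calls remained. Upstream of the cyclooxygenases, 2 of 5 phospholipases tested were lower, Pla2g4e among them, and none higher. Pla2g5, a secreted phospholipase A2, fell from 12.4 ± 6.34 to 3.66 ± 1.92 FPKM (log2 fold change -1.45, limma adjusted p = 0.0059). Pla2g4a, the cytosolic phospholipase A2 that supplies most arachidonic acid for prostanoids, held 41.1 ± 17.1 FPKM in saline libraries and 38.9 ± 9.90 FPKM in Ang II libraries (log2 fold change 0.01, limma adjusted p = 0.977).

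Among 6 other synthesis genes 1 rose and 2 fell, near the 9.54% and 24.9% of all tested genes at this list size. Akr1b3, an aldose reductase with prostaglandin F synthase activity, rose from 44.4 ± 11.2 to 63.8 ± 8.55 FPKM (log2 fold change 0.54, limma adjusted p = 0.0113). Ptges2, a constitutive prostaglandin E synthase, fell from 10.1 ± 2.92 to 6.97 ± 0.867 FPKM (log2 fold change -0.45, limma adjusted p = 0.0199), a call that was lost after median ratio scaling (limma adjusted p = 0.120). Fam213b, a prostamide and prostaglandin F synthase, fell from 18.8 ± 5.41 to 11.3 ± 2.95 FPKM (log2 fold change -0.67, limma adjusted p = 0.00998). The thromboxane synthase gene Tbxas1 held 0.629 ± 0.577 FPKM in saline libraries and 1.54 ± 1.62 FPKM in Ang II libraries and was not called (limma adjusted p = 0.136).

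Of 4 tested genes of prostanoid breakdown and transport 2 rose, where 9.54% of all tested genes were called higher. A list of 4 is too short to compare shares. Ptgr1, a reductase that inactivates prostaglandins and leukotriene B4, rose from 5.99 ± 1.31 to 8.36 ± 1.32 FPKM (log2 fold change 0.43, limma adjusted p = 0.0149). Abcc4, an efflux pump that carries prostaglandins, rose from 1.68 ± 0.741 to 3.19 ± 0.913 FPKM (log2 fold change 0.67, limma adjusted p = 0.0174). Of the 5 leukotriene synthesis genes tested only Mgst2, a microsomal glutathione transferase, was called, where 24.9% of all tested genes were called lower. It fell from 1.22 ± 0.334 to 0.348 ± 0.208 FPKM (log2 fold change -0.72, limma adjusted p = 0.000495). Mgst2 and the phospholipase gene Pla2g4e (1.06 ± 0.407 to 0.264 ± 0.0969 FPKM) had a mean under 1 FPKM over all libraries and are named after their values were seen. Their Ang II means lay under the 0.5 FPKM of the filter, which they passed only through the saline libraries, where they were high. Both are among the lower calls on this list, of which 3 remained with a filter at a mean of 1 FPKM. Of 10 other prostanoid and leukotriene receptors on the list only Ptger1 and Ltb4r1 passed the filter, and neither was called. After adjustment for the macrophage and monocyte score 5 of the 8 calls were lost, those of Pla2g5, Ptges2, Akr1b3, Ptgr1 and Abcc4 (limma adjusted p = 0.0793 to 0.223). The log2 fold changes were then -1.19 for Pla2g5, -0.44 for Ptges2, 0.40 for Akr1b3, 0.26 for Ptgr1 and 0.57 for Abcc4, with larger SEs. Over all tested genes the calls went from 1431 higher and 3741 lower to 736 and 1858 with this score, so the loss is not particular to these genes. With the white adipocyte score in the model 3 calls were lost, those of Fam213b (-0.44, limma adjusted p = 0.0503), Abcc4 (0.49, limma adjusted p = 0.0894) and Ptges2 (-0.32, limma adjusted p = 0.0994). Without Saline 2, Saline 7 and Saline 8 the calls of Fam213b (-0.48, limma adjusted p = 0.066), Ptges2, Ptgr1 and Abcc4 were lost (limma adjusted p = 0.0616 to 0.0769 for these 4).

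**Figure D4:**
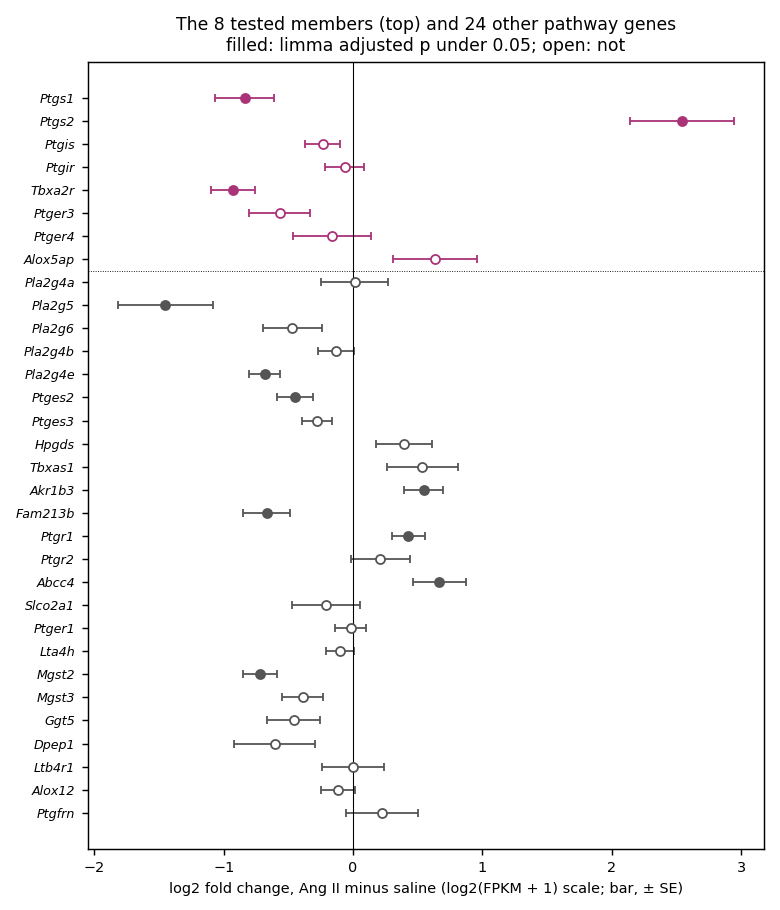
Log2 fold change (points, with bars for ± SE) of the 8 tested genes in the upper block and of 24 other pathway genes below; filled points have a limma adjusted p under 0.05. Ptgs2 lies at 2.54, apart from all others, and Pla2g5 at -1.45; with a pseudocount of 0.1 Mgst2 (-1.71) lies beside Pla2g5 (-1.70).

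Within the groups, the genes most like each of the 8 tested were found by the mean absolute difference between deviations from the group mean over the 16 libraries, in units of each gene's SD within groups, among 11917 genes. Ptgs1 was closest to She (0.256 SD) and Palmd (0.281 SD), against a median of 1.04 SD over all genes compared. Ptgs2 was closest to Arhgap11a (0.387 SD) and Ulbp1 (0.413 SD), and Alox5ap to Pilra (0.327 SD) and Apobr (0.336 SD). For Ptgis the nearest were Insyn1 and Ctdsp1 (0.317 SD both), and for Tbxa2r Palm (0.247 SD) and Rtn2 (0.256 SD). Ptger3 was nearest to Gulp1 (0.211 SD), Ptger4 to Spty2d1 (0.229 SD) and Ptgir to Gprc5b (0.335 SD). The libraries that stood apart enter these distances.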

How the data were processed

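The authors deposited 1 table of FPKM for 54532 genes of 16 mouse aorta libraries; per the submitters' processing notes, reads were placed on GRCm38 (mm10), with aligner, counter and strand setting not given in the sources used here. Sample titles gave the groups, and library names matched columns to samples. A deposited gene length column was not used.

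The main test was limma 3.58.1 (R 4.3.3, intensity trend) on log2(FPKM + 1), 8 against 8 libraries with no covariate, for genes with a mean of at least 0.5 FPKM, two-sided, with Benjamini-Hochberg adjustment over all genes tested and a threshold of 0.05. Exact permutation tests used Python 3.11.15. FPKM were whole multiples of 1 read when the mean GENCODE M21 transcript length, rounded down, served as length: per library, 95.8% to 96.3% of the nonzero values lay within 0.02 of a whole number, as did all 10 genes. Voom in limma was run on these reads. The 56 pairs of libraries within groups showed no copied library (lowest chi-square per degree of freedom 15.5). The tests were checked on simulated data.

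The 10 genes, the pathway and marker lists and the naming rule were chosen with earlier results of these data known. All 10 genes were named; from the pathway list, called genes with a mean of at least 1 FPKM; and the nearest genes by deviation. Marker scores are mean z-scores of a list. A planned ratio of Ptgis to Ptges was not computed because Ptges was under the filter. Alternatives were a pseudocount of 0.1, other filters, quantile and median ratio scaling, a replicate block, sample weights, a Wilcoxon test, marker scores as covariates and leaving out libraries; voom and the endothelial score were added after seeing the data.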

Additional observations from a re-analysis of the deposited data

Results flagged for a closer look

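In 20 combinations of gene and group, 3 single libraries lay far from the other 7 of their group. Their gap to the nearest library was more than 0.526 of the range. For normally distributed values chance alone flags about 1 combination in 20. Linear FPKM need not be so distributed and the genes share libraries, so the 3 flags are not shown to exceed chance. Alox5ap in Ang II 1 was at 30.4 FPKM, against a group median of 6.39 FPKM. Ptges in Ang II 1 was at 1.09 FPKM, against a median of 0.267 FPKM and on 23 reads. Tbxa2r in Ang II 2 was at 25.3 FPKM, against a median of 16.2 FPKM, and without that library its log2 fold change was -1.02.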

How the results depend on the processing

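Over 30 alternatives the calls of Ptgs2 (log2 fold change 2.03 to 2.83) and Tbxa2r (-1.02 to -0.72) held in each, and that of Ptgs1 (-1.11 to -0.70) in 29. Ptger3 passed in 8 alternatives and Ptger4 in 2. For both genes these include leaving out the lowest saline values, which moves the fold change down by construction. The sign turned for Ptgis after quantile normalization (0.049), for Ptgir after median ratio scaling (0.015) and for Alox5ap with the macrophage and monocyte score (-0.19), none of them called. With sample weights 4 of the tested genes were lower, as without Saline 2, Saline 7 and Saline 8, and with the macrophage and monocyte score 1 was; leaving out single libraries gave 2 to 3.

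Over all genes, 2270 were higher and 2374 lower after quantile normalization, 2236 and 2114 after median ratio scaling, and 736 and 1858 with the macrophage and monocyte score, against 1431 and 3741. Voom on recovered reads called 1372 higher and 3429 lower of 14254. The scalings moved the median of all genes from -0.12 to -0.02 and -0.01. Of the pathway genes, 3 were lower with a filter at a mean of 1 FPKM (fewer genes tested) and 9 with sample weights; 8 were lower with the endothelial score; 0 were higher and 3 lower with the macrophage and monocyte score; 1 was higher without Saline 2, Saline 7 and Saline 8. The cause was not tested. With the replicate number as a block 5 pathway genes were higher, and no call among the 10 genes changed. No clear pairing by number was seen: the correlations of same-numbered deviations ran from -0.246 to 0.385, and 2 of 8 saline libraries correlated best with their own number. Outlying libraries enter these correlations, so they cannot exclude a pairing. Both ratios kept their direction and call in all 20 alternatives, among them the replicate block (exact sign-flip test over 8 pairs, adjusted p = 0.0156). Depth limits Ptges (2 to 23 reads) and Ptgds (0 to 19 reads).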
